A study of Mus musculus with 10 samples.

Results

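The S100 genes encode small calcium-binding proteins. The 10 members described here (S100a1, S100a4, S100a6, S100a8, S100a9, S100a10, S100a11, S100a13, S100a14 and S100a16) were taken by symbol from a table of 55486 genes, and each matched 1 row. Bulk RNA sequencing had been made from 10 libraries in 6 groups, all from 5 gels of collagen and basement membrane extract that were cultured for 7 days. Normal fibroblasts (NFs) came from the mammary gland of mTmG mice at the age of 8 weeks, whose cells are red until Cre recombinase turns them green, and were sorted without (CD26−) or with (CD26+) the surface protein CD26. Only the CD26+ NFs had received a Cre-expressing adenovirus (adeno-Cre), so that virus exposure and subset cannot be told apart. Tumor cells were lines 13-MCB-17 and 10-SJK-221 from invasive lobular carcinoma (ILC) of mice with WapCre and floxed Cdh1 (Cdh1F/F), in which the whey acidic protein promoter drives Cre in mammary epithelium. Per the study's methods, glands of several mice were pooled for a sort, and lines were grown out of primary tumors at end stage. Gel 1 held CD26− and CD26+ NFs without tumor cells. Gel 2 (13-MCB-17) and gel 3 (10-SJK-221) held tumor cells alone. Gel 4 (13-MCB-17) and gel 5 (10-SJK-221) were co-cultures of both NF subsets with tumor cells. Each cell type of each gel gave 1 library, sorted by color after the gel was dissolved.

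S100 proteins have EF-hand loops that take up calcium, after which most of them expose a surface that grips a target protein. Inside the cell they act on annexins, the actin and myosin skeleton and membranes. Some leave the cell and act on receptors such as RAGE (the product of Ager) and Tlr4. S100a8 and S100a9, the subunits of calprotectin, are best known from neutrophils. S100a4 is also called fibroblast-specific protein and is often used as a fibroblast marker in the mammary gland.

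Libraries held 14142334 to 18408940 counts, and levels are given as CPM (counts scaled to the same library total). An observed 0 allows up to 3 counts, or 0.163 to 0.212 CPM depending on the library, and such limits cover counting error only. NFs and tumor cells bore the markers of their cell type: all 10 fibroblast markers were lower and all 10 epithelial markers were higher in tumor cells than in NFs, in gels grown alone and in co-culture. Cdh1, the floxed gene whose loss the study's methods checked by genotyping the lines, was counted at 239 and 269 CPM in tumor cells alone, 144 and 140.0 CPM in co-cultured tumor cells, 2.42 to 5.23 CPM in co-cultured NFs and 0 in NFs alone. Counts over a whole gene do not show which exons were read, so this level does not check the deletion. Dpp4, the gene of CD26 (added to the lists late), was too low for a test between the subsets. Its counts were 0 (gel 1), 0 (gel 4) and 1 (gel 5) in NFs sorted as CD26−, and 4, 12 and 4 in those sorted as CD26+. Co-cultured NFs also held epithelial RNA. Their 10 epithelial markers summed to 130 to 307 CPM, against 0.435 to 1.4 CPM in NFs alone. In co-cultured tumor cells the 10 fibroblast markers summed to 581 to 889 CPM, against 201 to 484 CPM in tumor cells alone. Only gel 1 held NFs alone, with 1 library of each subset. The 6 NF libraries came from 3 gels. The tests took each library as a replicate, so the spread behind p-values in NFs mixes libraries of the same gel with libraries of different gels. Fits with NF counts summed over both subsets of a gel were added after the data were seen. Nothing in the labels says that NFs of different gels came from separate animals.

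All members lie on chromosome 3 (GRCm38), in a cluster that also holds most other S100 genes. S100a1 (minus strand, 90511034 to 90514392) and S100a13 (plus strand, 90514435 to 90524581) face away from each other, with 42 bases between them. S100a14 (90526856 to 90528837), S100a16 (90537254 to 90543151), S100a4 (90603771 to 90606045), S100a6 (90612882 to 90624181) and S100a8 (90668978 to 90670035) follow on the plus strand. S100a9 (90692632 to 90695721) is on the minus strand, and S100a11 (93520488 to 93526287) and S100a10 (93555080 to 93564643) lie further along on the plus strand. Of the exonic length of S100a4, 51.7% is shared on the same strand with the gene model Gm42674, which had 0 counts in every library. Counts of S100a4 depend on how shared reads were assigned and are uncertain as levels, whereas ratios between libraries compare the same gene model.

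Promoter windows of RefSeq (GRCm38.p6, 250 bases before to 50 after a start site) existed for 8 of the 10 members, in 9 windows. S100a10 and S100a14 had none. The stretches below lie upstream of the annotated genes. They are shown for the pair that shares its upstream bases, for the members with the largest fall (S100a4) and the largest rise (S100a8) in co-cultured NFs, and for the member with the highest level per length in NFs (S100a11). All are on the plus strand, 5′ to 3′, and capitals mark matches, on either strand, to the AP-1 motif TGANTCA, the E-box CANNTG or the TATA box TATAAA.
S100a1 and S100a13 (chr3:90514393-90514434, the whole interval between the genes): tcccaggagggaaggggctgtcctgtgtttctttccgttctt
S100a4 (chr3:90603520-90603769): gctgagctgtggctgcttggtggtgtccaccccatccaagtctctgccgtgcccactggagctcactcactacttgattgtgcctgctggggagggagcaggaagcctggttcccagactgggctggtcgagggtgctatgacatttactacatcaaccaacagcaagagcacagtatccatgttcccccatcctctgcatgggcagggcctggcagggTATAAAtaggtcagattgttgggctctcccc
S100a8 (chr3:90668821-90668977): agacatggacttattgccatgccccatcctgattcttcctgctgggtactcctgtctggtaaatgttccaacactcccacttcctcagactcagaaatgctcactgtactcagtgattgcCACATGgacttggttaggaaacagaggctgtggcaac
S100a11 (chr3:93520246-93520487): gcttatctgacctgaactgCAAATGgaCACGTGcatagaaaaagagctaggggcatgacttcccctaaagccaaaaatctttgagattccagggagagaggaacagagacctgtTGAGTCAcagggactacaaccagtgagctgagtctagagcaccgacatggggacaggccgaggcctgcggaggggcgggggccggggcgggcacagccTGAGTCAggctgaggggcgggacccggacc

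In the full windows a TATA box match began 31 bases upstream of the RefSeq start of S100a4 and 30 bases upstream of that of S100a8. S100a9 was the other member with a match. TATAAA occurs in 13.6% of all 32851 windows of this length. AP-1 matches were in the windows of S100a11, at 136 and 38 bases upstream, and of S100a16, against 7.81% of all windows. E-box matches were in windows of 6 members, against 72.3% of all windows, and none of the motifs was found in the window of S100a1. No motif match overlapped another in the stretches shown.

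Per kilobase of exon, S100a11 and S100a6 had the highest levels of the members in each cell type. S100a6 (calcyclin) binds annexins and the ubiquitin ligase partner Cacybp, and S100a11 binds Anxa1. In NFs alone the order by mean CPM per kilobase was S100a11 (612), S100a6 (380), S100a10 (103), S100a16 (52.4), S100a13 (32.9), S100a1 (20.1) and S100a4 (17.4), followed by S100a14, S100a8 and S100a9 below 1. Of these neighbours, S100a1 and S100a4 overlapped in their libraries, as did the lowest members. In tumor cells alone the order was S100a6 (935), S100a11 (926), S100a14 (358), S100a10 (341), S100a8 (148), S100a16 (72.3), S100a1 (43.1), S100a13 (17.5), S100a4 (15.1) and S100a9 (1.8). There, S100a6 and S100a11 overlapped, as did S100a14 and S100a10, S100a8 and S100a16, and S100a13 and S100a4. S100a14 and S100a8 thus stood among the upper members in tumor cells and near 0 in NFs alone. The CPM of all members summed to 642 to 1110 in NFs and 1710 to 3381 in tumor cells, and S100a6 took between 36.5% and 54.0% of that sum in a library.

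**Figure D1:**
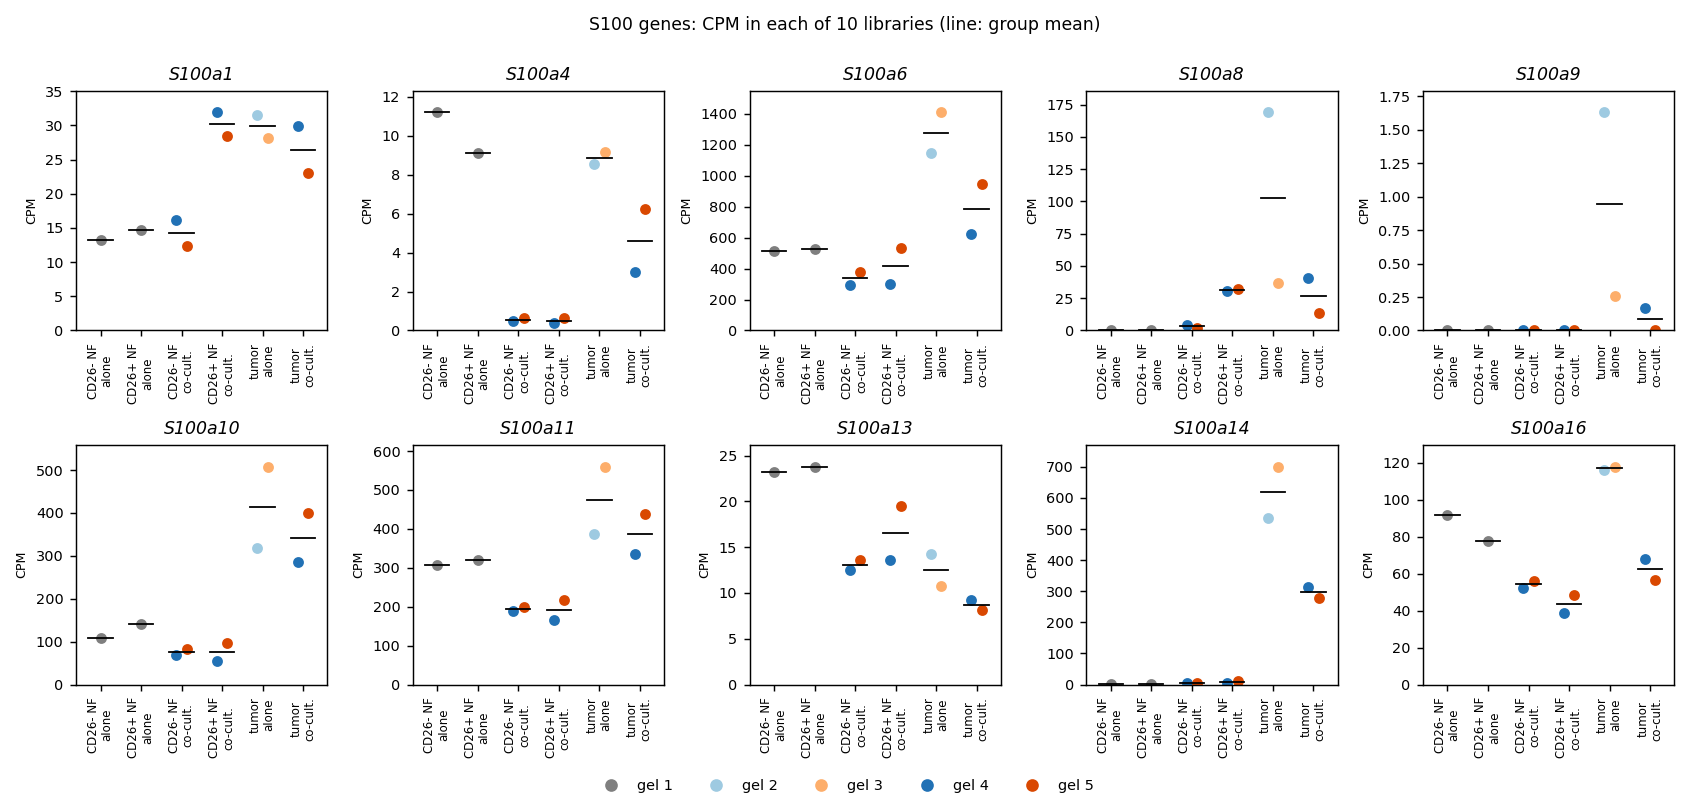
CPM (y axis, linear, from 0) of each S100 member in the 10 libraries by group (x axis), with points colored by gel and a line at the group mean. S100a14 sits between 278 and 701 CPM in tumor cells and at no more than 12.1 CPM in NFs, S100a4 is below 1 CPM in co-cultured NFs only, and the co-cultured CD26+ NFs have 30.4 and 32.1 CPM of S100a8.

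Tumor cells grown alone were first compared with NFs grown alone. Of the 10 members, 6 were higher and 1 was lower in tumor cells (edgeR quasi-likelihood test, Benjamini-Hochberg adjusted p under 0.05 over 17048 genes). Over all genes 27.1% were higher and 28.4% lower, and the median log2 fold change was 1.07 over the members and -0.022 over all genes tested. One of the 6 was S100a9, which has 0 counts in all NFs and entered the test only through tumor cells alone. Without it 5 of 9 were higher and the median was 0.97. S100a14, a family member mostly found in epithelia, had 0.310 CPM (CD26−) and 0.351 CPM (CD26+) in NFs, whereas tumor cells had 535 CPM (13-MCB-17) and 701 CPM (10-SJK-221). The groups were far apart, with an adjusted p of 6.15e-07. In NFs S100a8 had 0 counts (CD26−) and 3 counts (CD26+), and tumor cells had 169 and 37.0 CPM (adjusted p = 0.000267). S100a9, its partner in calprotectin, had 0 counts in every NF library and 1.63 and 0.254 CPM in tumor cells alone. These were 30 counts in gel 2 and 4 counts in gel 3. Its call (adjusted p = 0.0373) was lost with DESeq2 (adjusted p = 0.168) and with NF counts summed per gel (adjusted p = 0.0756), and without gel 2 or with the filter of 1 CPM in 2 libraries the gene was not tested. Fold changes of these members against NFs alone are not given, since the NF counts were at or near 0.

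S100a10, which forms a tetramer with annexin A2 at the membrane, had 108 and 141 CPM in CD26− and CD26+ NFs alone, against 319 and 508 CPM in tumor cells. Every tumor library was above every NF library, and the log2 fold change was 1.61 ± 0.327 (SE; adjusted p = 0.0035). S100a6 had 513 and 524 CPM in these NFs and 1148 and 1409 CPM in tumor cells, a log2 fold change of 1.17 ± 0.324 (SE; adjusted p = 0.0152). S100a1, a regulator of calcium handling in muscle, had 13.2 and 14.7 CPM in NFs and 31.6 and 28.2 CPM in tumor cells (log2 fold change 0.97 ± 0.209, SE; adjusted p = 0.00455). S100a13, which takes part in the release of Fgf1 from cells, was the member that was lower in tumor cells. It had 23.2 and 23.8 CPM in NFs and 14.3 and 10.8 CPM in tumor cells, a log2 fold change of -1.03 ± 0.262 (SE; adjusted p = 0.0101), and the call was lost without gel 3 (adjusted p = 0.0516).

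The remaining 3 members did not pass the test between the cell types grown alone. S100a4, the fibroblast marker, had 11.2 CPM (CD26−) and 9.12 CPM (CD26+) in NFs, and tumor cells had 8.53 and 9.16 CPM. The values of NFs and tumor cells overlapped, and the log2 fold change was -0.33 ± 0.365 (SE; adjusted p = 0.474). S100a11 had 306 and 319 CPM in NFs against 386 and 560 CPM in tumor cells, and S100a16 had 92.0 and 77.5 CPM against 116 and 118 CPM. In both, all tumor libraries lay above all NF libraries.

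In co-culture, tumor cells and NFs of the same gels were compared. 5 of the 10 members were higher and 1 was lower in tumor cells, where 24.2% of all genes were higher and 27.7% lower. The median log2 fold change was 1.04 over the members (0.86 without S100a9) and -0.056 over all genes. S100a14 had 315 CPM (gel 4) and 278 CPM (gel 5) in tumor cells. In NFs it had 5.94 and 5.81 CPM (CD26−) and 6.62 and 12.1 CPM (CD26+). The difference was 5.12 ± 0.239 (log2 fold change, SE; adjusted p = 1.32e-06), the largest of the members that passed. S100a4 followed with a log2 fold change of 2.89 ± 0.364 (SE; adjusted p = 0.000266), on the values given with the effect of co-culture. S100a10 (1.96 ± 0.266), S100a6 (0.86 ± 0.27) and S100a11 (0.8 ± 0.194) were also higher in tumor cells on the log2 scale (± SE), with adjusted p of 0.000399, 0.0275 and 0.00901. S100a13 was lower in tumor cells, as in cells grown alone (log2 fold change -0.97 ± 0.238, SE; adjusted p = 0.00949). With gel 4 or gel 5 left out, the calls of S100a6, S100a11 and S100a13 were lost and those of S100a4, S100a10 and S100a14 were kept. With NF counts summed per gel the call of S100a6 was lost (adjusted p = 0.0564).

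S100a8 did not pass between the cell types in co-culture (log2 fold change 1.22 ± 0.612, SE; adjusted p = 0.127). Tumor cells had 40.3 CPM (gel 4) and 13.4 CPM (gel 5), and NFs spanned 2.19 to 32.1 CPM. The CD26+ NFs of gel 5 held more S100a8 than the tumor cells of that gel. With the fit restricted to the 6 co-culture libraries S100a8 passed, at 1.07 with the gel as a block (adjusted p = 0.0211) and 1.21 without it (adjusted p = 0.031), and it passed with every gene of at least 1 count tested (1.21, adjusted p = 0.00905). The value was 0.42 without gel 4 (adjusted p = 0.797), 1.65 without gel 5 (adjusted p = 0.292) and 0.49 with NF counts summed per gel (adjusted p = 0.633). S100a1 and S100a16 did not pass in co-culture either (log2 fold change 0.16 for both, adjusted p = 0.488 and 0.421), and S100a9 had 3 counts in tumor cells of gel 4 and 0 in the other co-culture libraries.

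Co-culture was then compared with NFs alone, in a fit of the 6 NF libraries on culture and subset. Of 9 members tested, 3 rose and 5 fell. Among those that rose, S100a8 and S100a14 were at or near 0 counts in NFs alone and entered the test only through co-cultured libraries. Over the 15013 genes tested 25.9% rose and 22.9% fell, and the median log2 fold change was -0.63 over the members and 0.025 over all genes. S100a9 was left out by the filter on low counts. A gel that held NFs alone existed once, so the culture and that gel cannot be told apart. The fit took its 6 libraries as independent and left 3 residual degrees of freedom, although both libraries of NFs alone shared gel 1. With NF counts summed per gel NFs alone are 1 sample, so that the spread came from the co-culture gels alone (1 residual degree of freedom) and was assumed for gel 1. The 8 calls in that fit are no check of how NFs alone vary between gels. Here and elsewhere in these bulk libraries, fewer cells with a gene and less of its RNA per cell cannot be told apart.

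S100a4 fell the most. It had 11.2 CPM (181 counts) in CD26− NFs alone and 9.12 CPM (130 counts) in CD26+ NFs alone. In co-culture it had 0.485 and 0.633 CPM (8 and 11 counts) in CD26− NFs and 0.385 and 0.636 CPM (6 and 9 counts) in CD26+ NFs, in gels 4 and 5. Both subsets were therefore low in both co-culture gels. The log2 fold change was -4.18 ± 0.308 (SE; adjusted p = 6.7e-06), an 18.2-fold difference, and it was -3.91 without gel 4 and -4.51 without gel 5. Tumor cells in the same gels had 3.00 and 6.22 CPM, so that the NFs held 10.2% to 16.2% of their level. Of the 10 fibroblast markers, 5 fell and 2 rose, with a median log2 fold change of -0.45, and their summed level went from between 75256 and 80574 CPM in NFs alone to between 26190 and 47991 CPM in co-culture. Col3a1 fell the most of them (-1.95 ± 0.257; adjusted p = 0.000233), and Dcn and Thy1 rose. The part of a change in fibroblast RNA in the fall of S100a4 was not tested.

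Smaller falls were seen in S100a16, S100a11, S100a10 and S100a13. S100a16, which binds calcium weakly, had 52.5 and 56.2 CPM (CD26−) and 38.6 and 48.4 CPM (CD26+) in co-culture, all below the values in NFs alone (log2 fold change -0.75 ± 0.139, SE; adjusted p = 0.00182). S100a11 had 189 and 200 CPM in the CD26− and 165 and 218 CPM in the CD26+ NFs (-0.65 ± 0.149; adjusted p = 0.00564). S100a10 had 69.6 and 82.0 CPM in the CD26− and 55.3 and 97.0 CPM in the CD26+ NFs (-0.65 ± 0.217; adjusted p = 0.0317). With gel 4 or gel 5 left out, the log2 fold change of S100a10 ranged from -0.98 to -0.39. S100a13 had 12.5 and 13.6 CPM in the CD26− and 13.6 and 19.5 CPM in the CD26+ NFs (-0.63 ± 0.186; adjusted p = 0.0194), and its call was lost without gel 4 (adjusted p = 0.0833). In these 4 members every co-cultured NF library was below both libraries of NFs alone. S100a6 did not pass (-0.42 ± 0.229; adjusted p = 0.158). Its CD26− libraries had 293 and 380.0 CPM. Its CD26+ libraries were at 301 CPM (gel 4) and 535 CPM (gel 5), the latter above NFs alone, and the log2 fold change was -0.8 without gel 5 (adjusted p = 0.0121) and -0.12 without gel 4 (adjusted p = 0.593).

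S100a8, S100a14 and S100a1 rose. S100a8 went from 0 and 3 counts to 4.36 and 2.19 CPM (72 and 38 counts) in CD26− NFs and to 30.4 and 32.1 CPM (474 and 454 counts) in CD26+ NFs. CD26− NFs were at least 23.4-fold higher in gel 4 and at least 11.7-fold higher in gel 5 than alone, against the limit of 3 counts. In CD26+ NFs the ratio to the 3 counts in gel 1 was 145 in gel 4 (exact 95% interval 49.2 to 704) and 152 in gel 5 (51.8 to 742). These intervals compare 1 library with 1 other and cover counting error only, not the spread between gels. S100a14 rose from 0.310 and 0.351 CPM to between 5.81 and 12.1 CPM. Since S100a8 and S100a14 entered this fit only through co-cultured libraries, no test of their rise is given. In co-culture S100a1 had 16.2 and 12.3 CPM (CD26−) and 31.9 and 28.5 CPM (CD26+). The CD26− libraries overlapped those of NFs alone, and the call (log2 fold change 0.61 ± 0.221, SE; adjusted p = 0.0451) was lost without gel 4 (adjusted p = 0.134) or gel 5 (adjusted p = 0.0639), and with every gene of at least 1 count tested (adjusted p = 0.062).

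The epithelial RNA in co-cultured NFs moved with these rises. Epithelial markers in CD26− NFs stood at a median of 1.97% (gel 4) and 2.2% (gel 5) of their level in tumor cells of the same gel, with a highest value of 9.79%. In CD26+ NFs the medians were 3.1% and 5.03%, and the highest value was 17.7% (Krt19, in gel 5). S100a14 in NFs was at 1.88% and 2.09% (CD26−) and 2.1% and 4.34% (CD26+) of the tumor cells of the same gel, within the range of the epithelial markers. S100a8 was at 10.8% and 16.3% in CD26− NFs and at 75.6% and 239% in CD26+ NFs, above every epithelial marker of the same library. S100a1 was at 54.2% and 53.6% in CD26− and 107% and 124% in CD26+ NFs. The part of epithelial RNA in the rise of S100a14 was not tested. Endothelial markers and the mitochondrial share moved with culture as well. Pecam1 rose from 0.310 and 1.26 CPM in NFs alone to between 5.93 and 9.76 CPM (adjusted p = 0.00011), and Cdh5 also rose (adjusted p = 0.00192), which made 2 of the 3 endothelial markers tested. The summed level of the 5 endothelial markers was 1.37 to 4.91 CPM without tumor cells and 8.00 to 22.9 CPM with them, with Emcn at 0 in co-culture and Tie1 at 0 in NFs alone. Mitochondrial genes took 1.67% and 1.68% of counts in NFs alone and 0.816% to 1.05% in co-culture. The part of these in the changes of the members was not tested.

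**Figure D2:**
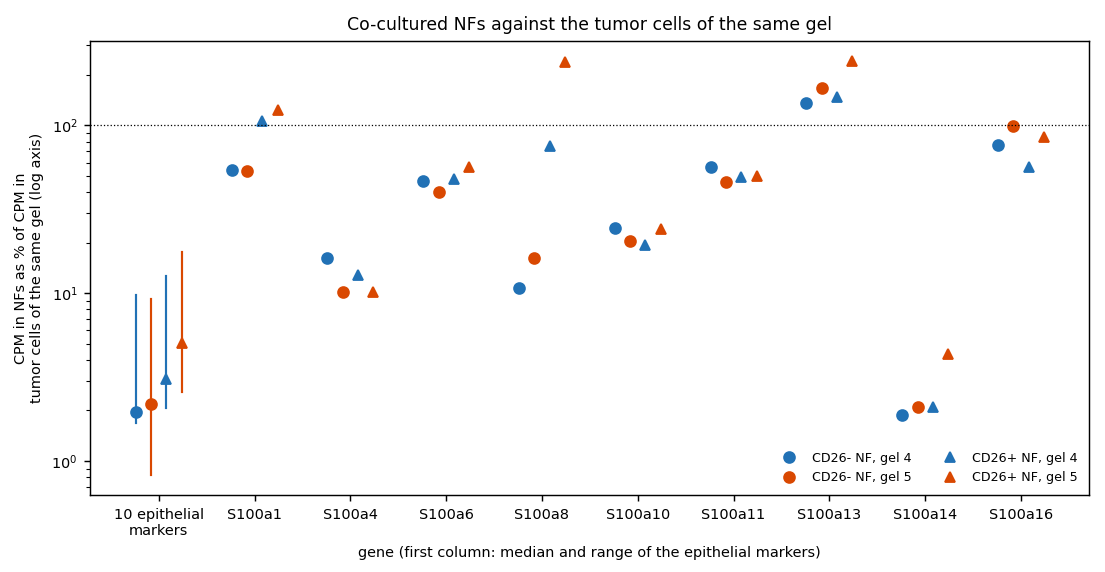
CPM in co-cultured NFs as a percent of the CPM in tumor cells of the same gel (y axis, log scale) for 10 epithelial markers (median and range) and 9 S100 members (x axis), with circles for CD26− and triangles for CD26+ NFs and colors for gels. S100a14 (1.88% to 4.34%) lies in the range of the epithelial markers, and S100a8 in CD26+ NFs reaches 75.6% and 239%. The dotted line is the level of the tumor cells.

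Since S100a8 and S100a9 are abundant in neutrophils, myeloid markers were examined. Tyrobp had 0 counts in all 10 libraries, Adgre1 had 0 counts in all NFs, and Ptprc, the pan-leukocyte gene, was at no more than 0.127 CPM. Ly6g reached 1.02 CPM in tumor cells alone (gel 3) and 0.281 CPM in CD26+ NFs alone. The 10 myeloid markers summed to 11.6 to 14 CPM in NFs alone, 32.5 to 64.9 CPM in co-cultured NFs, 102 to 302 CPM in tumor cells alone and 52.7 to 99.9 CPM in co-cultured tumor cells. Cd68, a lysosomal gene that other cells also express, made up most of the sum in tumor cells alone, with 299 and 93.1 CPM. Of the 4 myeloid markers tested in NFs by culture, 3 rose in co-culture and 1 fell. Csf1r rose from 1.86 and 2.81 CPM to between 7.42 and 13.5 CPM (adjusted p = 0.000494), Cd68 and Itgam rose too, and Lyz2 fell. Laptm5 reached 6.56 CPM in co-cultured tumor cells. The part of myeloid RNA in the level of S100a8 was not tested.

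The NF subsets were compared over 3 gels. S100a8 was the only one of 9 members that passed, and it was higher in CD26+ NFs, while none was lower. Of all genes 3.93% were higher and 3.6% lower in CD26+ NFs, and the median log2 fold change was 0.063 over the members and 0.004 over all genes. S100a8 differed by 3.11 ± 0.294 (log2 fold change, SE; adjusted p = 0.00121). Its CPM in CD26+ NFs was 6.98 times that in CD26− NFs in gel 4 and 14.7 times in gel 5, and in gel 1 both subsets were at or under 3 counts. Without gel 1 the log2 fold change was 3.1 (adjusted p = 5.71e-05), without gel 4 it was 3.71 (adjusted p = 0.00528), and without gel 5 it was 2.7 and did not pass (adjusted p = 0.075). The medians of the epithelial markers above were also higher in CD26+ than in CD26− NFs of the same gel. Of the marker lists, Cldn3 (epithelial) and Kdr (endothelial) were higher and Col1a2 and Pdgfrb (fibroblast) lower in CD26+ NFs, and no myeloid marker passed.

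S100a1 had a like pattern at a smaller size. CD26+ NFs held 1.11 times the CPM of CD26− NFs in gel 1, 1.97 times in gel 4 and 2.31 times in gel 5, and the difference over 3 gels did not pass (log2 fold change 0.63 ± 0.203, SE; adjusted p = 0.0904). Within co-culture alone, without gel 1, it was 0.92 and passed (adjusted p = 0.0131). The difference of the subset effect between co-culture and NFs alone was 0.91 ± 0.341 (log2, SE; unadjusted p = 0.019, adjusted p = 0.489). S100a16 was lower in CD26+ NFs of each gel, at 0.842, 0.736 and 0.861 times the CPM of CD26− NFs in gels 1, 4 and 5. That difference did not pass (log2 fold change -0.45 ± 0.135, SE; adjusted p = 0.0725), but it did with the gel as a block (-0.46, adjusted p = 0.0444). For S100a6, S100a10, S100a11 and S100a13 the log2 fold change between subsets was between -0.15 and 0.081, with no SE above 0.22. S100a4 (-0.38 ± 0.329; adjusted p = 0.517) and S100a14 (0.46 ± 0.318; adjusted p = 0.41) did not pass either, and for S100a14 the value was 0.019 without gel 5. The filter on low counts left S100a9 out of the tests within NFs and within tumor cells.

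None of the 9 members (all but S100a9) passed the test of whether the effect of co-culture differed between the subsets, in which 0.376% of 16231 genes passed. At an unadjusted p under 0.05 the only such member was S100a1, and DESeq2 called none. The subset difference of S100a8 in gel 1, with 0 against 3 counts, was not measurable at this depth.

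**Figure D3:**
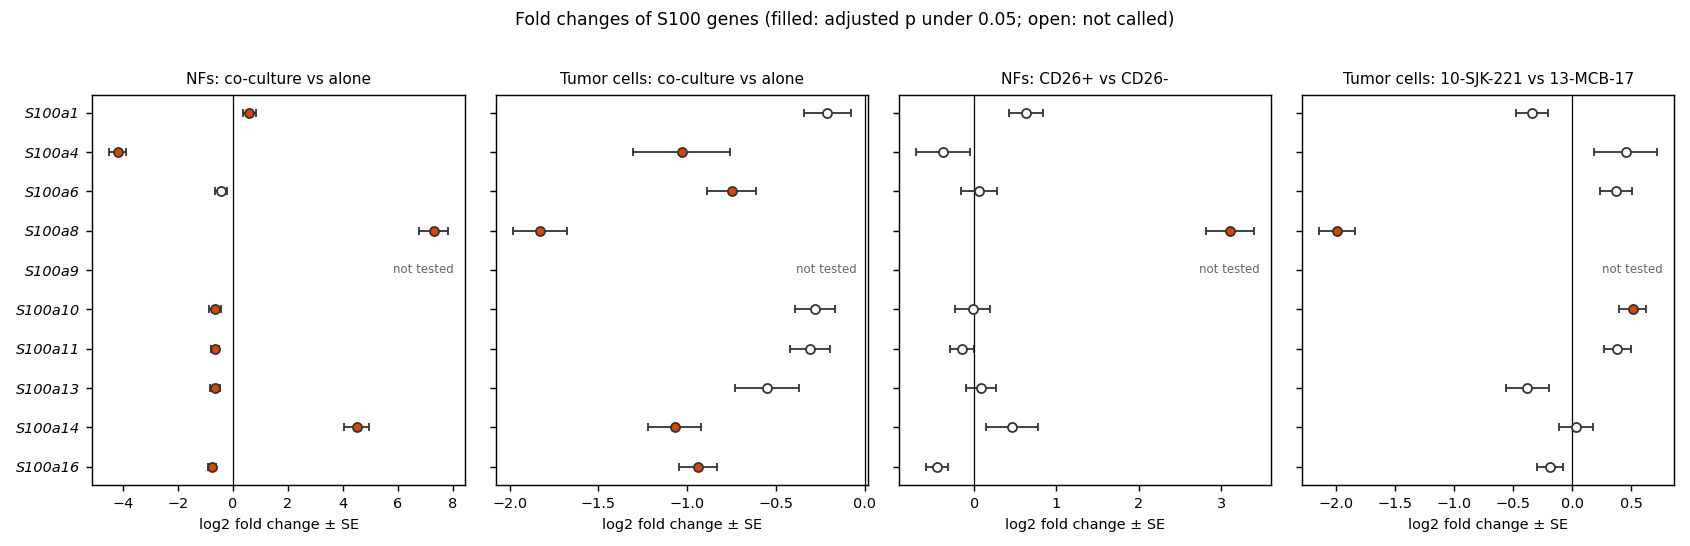
Log2 fold change ± SE (x axis) of the 10 S100 members (y axis) in NFs and tumor cells by culture, in NFs by subset and in tumor cells by line, with filled points at an adjusted p under 0.05. In NFs in co-culture S100a4 is at -4.18 and S100a8 at 7.31, the latter against counts at or near 0, and in tumor cells all 9 tested members are at or below -0.21.

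Tumor cells were compared between co-culture and culture alone, with line and culture as terms. Each line had 1 library per culture, so the fit of 4 libraries left 1 residual degree of freedom. Its SE and p-values lean on a spread shared across genes. Of 9 members tested, 5 fell in co-culture and none rose, against 11.5% and 10.8% of the 13197 genes tested, and the median log2 fold change was -0.75 over the members and 0.01 over all genes. S100a8 fell from 169 to 40.3 CPM in line 13-MCB-17 and from 37.0 to 13.4 CPM in line 10-SJK-221 (log2 fold change -1.83 ± 0.153, SE; adjusted p = 0.000172). S100a14 fell from 535 to 315 CPM and from 701 to 278 CPM (-1.07 ± 0.148; adjusted p = 0.00167). S100a16 fell from 116 to 68.2 CPM and from 118 to 56.6 CPM (-0.94 ± 0.108; adjusted p = 0.000765). In these members both lines were lower in co-culture.

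S100a6 fell from 1148 to 624 CPM in 13-MCB-17 and from 1409 to 946 CPM in 10-SJK-221 (-0.75 ± 0.137, log2 scale, SE; adjusted p = 0.0059). S100a4 fell from 8.53 to 3.00 CPM and from 9.16 to 6.22 CPM (-1.03 ± 0.272; adjusted p = 0.0288), and DESeq2 did not call it (adjusted p = 0.119). S100a13 had 14.3 and 10.8 CPM alone and 9.22 and 8.10 CPM in co-culture and did not pass (-0.55 ± 0.181; adjusted p = 0.0626). With every gene of at least 1 count tested, 7 of 10 members passed, the 5 above with S100a13 (adjusted p = 0.0264) and S100a9. S100a1, S100a10 and S100a11 were also lower in co-culture in both lines, at 0.78 to 0.946 times the CPM of cells grown alone, without passing. Epithelial markers moved in the same direction in part. Of the 10, 5 fell and none rose, with a median log2 fold change of -0.45. Of 8 fibroblast markers tested, 7 rose and none fell (median 3.4). Among 4 myeloid markers 2 rose and 1 fell, and of 3 endothelial markers 1 fell and none rose. The part of these in the falls of the members was not tested. With the line left out of the model, no member and no gene passed.

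The effect of co-culture was compared between tumor cells and NFs over all 10 libraries. S100a4 was the only member with a higher value of this difference, and S100a8 and S100a14 had lower ones. Of all genes 8.15% were higher and 12% lower. For S100a4 the difference was 3.22 ± 0.524 (log2, SE; adjusted p = 0.00443), and the gene was lower in co-culture in both cell types, by more in NFs. For S100a8 and S100a14 the adjusted p was 0.00537 and 0.000305, and these genes fell in tumor cells and rose in NFs. Fitted differences for S100a8 and S100a14 rest on NFs alone at or near 0 counts. Without gel 4 or without gel 5 none of the 3 passed, and neither did any gene in the table. Marker lists moved as well: 7 of 10 fibroblast markers had a higher value of this difference and none a lower one (median 4.06), while 10 of 10 epithelial markers (median -9.93) and 2 of 3 endothelial markers had a lower one. Their part in the differences of S100a4, S100a8 and S100a14 was not tested. S100a1 (-0.82; adjusted p = 0.0707), S100a6, S100a10, S100a11, S100a13 and S100a16 had differences between -0.82 and 0.36 and did not pass, nor did S100a9, with 0 counts in NFs.

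The tumor lines differed in 2 of 9 members. The fit was again of 4 libraries with 1 residual degree of freedom, and the 2 libraries of a line came from different cultures. S100a10 was higher in 10-SJK-221 (508 and 400.0 CPM, alone and in co-culture) than in 13-MCB-17 (319 and 285 CPM), with a log2 fold change of 0.51 ± 0.112 (SE; adjusted p = 0.0196). S100a8 was lower in 10-SJK-221 (-1.99 ± 0.153; adjusted p = 0.000168). Of all genes 5.93% were higher and 8.54% lower in 10-SJK-221. Of 8 fibroblast markers tested, 1 was higher and 4 were lower, and of 10 epithelial markers 1 was higher and 1 lower. Of 4 myeloid markers 1 was higher and 1 lower, and none of 3 endothelial markers passed. The part of these in the line differences of the members was not tested. S100a1, S100a4, S100a6, S100a11, S100a13, S100a14 and S100a16 had log2 fold changes between -0.38 and 0.45 and did not pass. With every gene of at least 1 count tested, S100a6 (adjusted p = 0.0241), S100a11 (adjusted p = 0.0159) and S100a9 passed too. For S100a8, co-cultured CD26− NFs had 4.36 CPM with 13-MCB-17 and 2.19 CPM with 10-SJK-221, and CD26+ NFs had 30.4 and 32.1 CPM. Each of these values is from 1 library, and line and gel cannot be told apart in them.

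Of 7 other S100 genes, 4 were tested between the cell types. S100a7a, a relative of psoriasin, had in tumor cells 19.4 and 9.86 CPM alone and 4.41 and 5.08 CPM in co-culture, and 0.807 to 2.76 CPM in NFs. It was higher in tumor cells than in NFs in cells grown alone (adjusted p = 0.000325) and in co-culture (adjusted p = 0.0362), and fell in co-cultured tumor cells (log2 fold change -1.59 ± 0.284, SE; adjusted p = 0.00546). S100a7l2, a close relative whose reads may be shared with S100a7a, had 7.19 and 6.72 CPM (112 and 95 counts) in co-cultured CD26+ NFs of gels 4 and 5. Elsewhere it had 0 counts, except for 1 count in tumor cells alone (gel 2), where 0.0543 CPM was below the limit of detection. It entered the NF tests only through those 2 libraries, so no test of it is given. S100b, best known from glia, was an NF gene here. NFs alone held 4.35 and 5.47 CPM, which fell to between 0.485 and 2.19 CPM with tumor cells (log2 fold change -2.28 ± 0.414, SE; adjusted p = 0.00158), and tumor cells had at most 0.113 CPM. S100a3 was at 1.37 to 3.75 CPM in tumor cells and at no more than 0.578 CPM in NFs. S100a5 and S100g did not exceed 0.561 CPM, and S100z had 0 counts throughout. S100a2, noticed in the table after its values were seen, did not exceed 0.954 CPM.

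**Figure D4:**
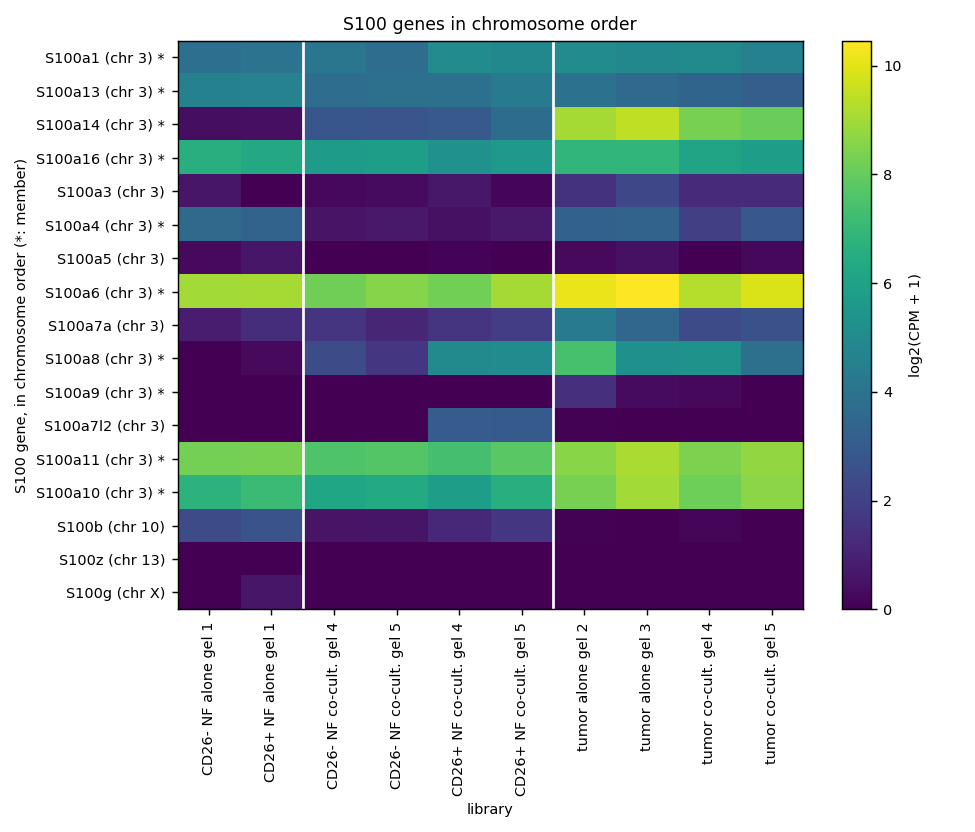
Levels as log2(CPM + 1) (color) of 17 S100 genes (rows, in chromosome order, asterisks mark the 10 members) in the 10 libraries (columns). S100a14 is at 278 to 701 CPM in tumor cells, and S100a4 is below 1 CPM in co-cultured NFs only. S100a3 and S100a5 are below 1 CPM in all NFs, alone and in co-culture. S100a7l2 is seen in the 2 co-cultured CD26+ NF libraries.

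Genes for partners, targets and receptors of S100 proteins were examined as a list of 14, all of which were tested. In NFs 2 rose and 6 fell in co-culture, where 25.9% of all genes rose and 22.9% fell, and the median log2 fold change of the list was -0.073. Bsg, a receptor of S100a9, rose from 484 and 530.0 CPM in NFs alone to between 1357 and 1685 CPM (1.64 ± 0.169 on the log2 scale, SE; adjusted p = 4.88e-05), and Alcam, another receptor of S100 proteins, rose by 1.81 ± 0.201 (adjusted p = 7.85e-05). Those that fell were Anxa1, Anxa2, Anxa6, Ahnak, Cacybp and Tlr4. Anxa2, the partner of S100a10, went from 766 and 759 CPM in CD26− and CD26+ NFs alone to 283 to 471 CPM (-0.98 ± 0.207; adjusted p = 0.00377), and Tlr4, a receptor of S100a8, fell by 0.79 on the log2 scale (SE 0.206, adjusted p = 0.0111). In tumor cells 2 of the 14 rose in co-culture (Alcam and Anxa6) and 3 fell (Anxa1, Anxa11 and Tlr4), against the 10.8% and 11.5% of all genes. There Anxa2 had 907 and 1037 CPM alone and 922 and 970.0 CPM in co-culture, and its log2 fold change was -0.062 ± 0.123 (SE; adjusted p = 0.77). Ager, the gene of RAGE, was between 1.18 and 5.65 CPM and passed in no comparison.

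Between the cell types, 3 of the 14 partners were higher in tumor cells grown alone and 6 in co-culture, and none was lower. Of all genes, 27.1% and 24.2% were higher and 28.4% and 27.7% lower in these comparisons, so that the count of 3 was no more than the share over all genes gives. Ahnak, a large scaffold protein bound by S100a10 with Anxa2, had 2319 and 2634 CPM in tumor cells, against 1579 CPM (CD26−) and 744 CPM (CD26+) in NFs, all grown alone (log2 fold change 1.06 ± 0.236, SE; adjusted p = 0.0055). Anxa11, a partner of S100a6, had 83.8 and 90.2 CPM against 17.3 and 19.2 CPM (2.12 ± 0.189; adjusted p = 3.17e-05). Between NF subsets Ahnak (-0.94 ± 0.181; adjusted p = 0.0189) and Myh9, the nonmuscle myosin heavy chain bound by S100a4 (-0.56 ± 0.146; adjusted p = 0.0494), were lower in CD26+ NFs, 2 of the 14 against 3.6% of all genes. Between the tumor lines Anxa5 was higher and Myh9 and Sugt1 were lower in 10-SJK-221. Of 7 genes for S100-fused proteins of the skin barrier, whose cluster adjoins the S100 genes, only Tchh was tested. It did not exceed 3.32 CPM and passed in no comparison, and 5 of the others had 0 counts in all libraries.

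Members of the family varied together in part. Across the 10 libraries Pearson's r of log2(CPM + 1) was 0.956 for S100a10 and S100a11, 0.947 for S100a6 and S100a10 and 0.939 for S100a6 and S100a11. S100a1 and S100a8 followed each other at 0.931. S100a13 and S100a14, next to each other on the chromosome, had the lowest value of all pairs without S100a9, -0.766. No pair with S100a9 was computed. S100a1 and S100a13, with the 42 bases between them shown above, had -0.438. These values describe 10 libraries that fall into NFs and tumor cells and share gels.

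Of 13490 genes with a mean of at least 1 CPM, those most like S100a14 were Cdh1 and Rps6ka1 (both r = 0.998), where Cdh1 is the gene of E-cadherin that is floxed in the tumor cells. S100a4 was most like Cavin1 (0.98) and Fbxo4 (0.978), and S100a8 most like Ghitm (0.984) and Gm19705 (0.972). For S100a1 these were Arf1 and Atp6v1g2 (both 0.953), for S100a6 Xrcc4 (0.983) and Cop1 (0.978), and for S100a10 Gm17018 (0.993) and Nfatc2 (0.991). For S100a11 they were Snrpf (0.981) and Dph6 (0.98), for S100a13 Serpinb1b (0.965) and Cdc42ep2 (0.962), and for S100a16 Ppib (0.97) and Glud1 (0.947). All were picked as the highest values among these genes over 10 libraries, so their size alone does not show a link.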

How the data were processed

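RNA sequencing libraries (stranded mRNA) were made by the authors from cells sorted out of gels, and raw read counts per gene were deposited as 1 table of 10 libraries without normalization. The submitters' processing notes name HISAT2 2.2.1 and GRCm38. The program that counted reads, whether strand was used and the annotation are not given in the sources used here. GENCODE M21 held the IDs of 99.38% of the 55486 genes, and 99.35% of these had the same coordinates. A row that named no gene (0 counts) was left out.

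CPM were computed from library totals (14142334 to 18408940 counts). Tests were run in edgeR 4.0.16 (R 4.3.3) with filterByExpr, TMM scaling, the quasi-likelihood F test and Benjamini-Hochberg adjustment over all genes (threshold 0.05), and checked on simulated counts. SE is the absolute log2 fold change over the root of F. Comparisons across cell types used all 10 libraries in 6 groups, NF comparisons 6 libraries (culture and subset), and tumor comparisons 4 libraries (line and culture). Alternatives were RLE scaling, other filters, DESeq2 1.42.0, a log2 fold change limit of 2 as in the study's methods, leaving out gels, NF counts summed per gel (chosen after seeing the data), the 6 co-culture libraries alone, no line term, and the gel as a block. Libraries of a gel shared a culture per the labels, and their deviations from group means correlated at 0.267, 0.194 and 0.102, so gel numbers pair them.

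By rule all 10 members were named in every comparison, and other listed genes could be named where they passed or define a list. The 2 genes most like each member were named for members with a mean of at least 1 CPM, which left out S100a9. Members and lists were chosen with earlier results of these data known. A further allele of the tumor genotype is not reported here.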

Additional observations from a re-analysis of the deposited data

Results flagged for a closer look

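The response to co-culture of 3 S100 genes differed between tumor cells and NFs, by a test of the difference itself (edgeR, all 10 libraries). For S100a4 the log2 response in tumor cells exceeded that in NFs by 3.22 (adjusted p = 0.00443). It went from 8.53 and 9.16 CPM to 3.00 and 6.22 CPM in tumor cells, and from 11.2 and 9.12 CPM to between 0.385 and 0.636 CPM in NFs. The fitted difference was -10.03 for S100a8 (adjusted p = 0.00537) and -5.58 for S100a14 (adjusted p = 0.000305), which fell in tumor cells and rose in NFs. Both fitted values rest on NFs alone at or near 0 counts and are not bounds. Of the epithelial markers, 10 of 10 had a lower difference, as S100a8 and S100a14 did, and of the fibroblast markers 7 of 10 had a higher one, as S100a4 did, and none a lower one. Their part in these differences was not tested. Without gel 4 or gel 5, which leaves 1 co-culture gel, none of the 3 passed.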

How the results depend on the processing

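Of 298 tested values of members under an alternative, 262 kept their direction and their side of the threshold, 27 lost the call, 9 gained it and none turned its direction. Counts of members that passed were those of the report or within 1.5 times of them under RLE scaling, DESeq2 and the filter of 1 CPM in 2 libraries. With the further limit of an absolute log2 fold change above 2, 3 members passed between cell types grown alone, 2 between cell types in co-culture, 3 in NFs by culture, 0 in tumor cells by culture and 0 between lines. Without the line term 0 members passed in tumor cells by culture, where 0 genes passed at all (2207 at an unadjusted p under 0.05). With every gene of at least 1 count, 5 members passed between lines and 7 in tumor cells by culture. With the replicate block by gel, 2 members passed between NF subsets (S100a8 and S100a16) and none in the interaction. Between cell types in co-culture 7 passed in the fit of the 6 co-culture libraries, with the block and without it, so the block did not change that count. With NF counts summed per gel, an alternative chosen after seeing the data, 6 members passed between cell types grown alone, 5 in co-culture, 3 in the response and 8 in NFs by culture, and 2041 genes passed in the response against 3439. Leaving out a gel left 3 members in co-culture between cell types, 0 to 2 between NF subsets and 0 to 3 in the response to co-culture, and the calls of members lost without a gel are named in the report. Without gel 4 or without gel 5, 0 genes passed for the response (3260 and 3467 at an unadjusted p under 0.05), where 1 co-culture gel remained. Over all genes, the interaction passed in 61 genes, and in 18 with every gene of at least 1 count, 38 with the filter of 1 CPM, 97 with DESeq2 and 395 with the block. Genes between subsets numbered 1130, and 17 without gel 5. Genes by culture in tumor cells numbered 2942, and 1574 with DESeq2. Genes between lines numbered 1910, and 945 with DESeq2 and 2917 with every gene of at least 1 count. Genes between cell types in co-culture numbered 8839, and 3018 and 2614 without gel 4 and gel 5. With the log2 limit the numbers of genes were 4899, 3999, 1629, 192, 2047, 418 and 278 in the order of the 2 cell type comparisons, the response, subsets, culture in NFs, culture in tumor cells and lines. Leaving out a tumor library left no residual degrees of freedom in the tumor fits, so those are values with no test, as are those of the interaction. No block could be fitted for culture in NFs or for cells grown alone, whose gels differ. The cause of these changes was not tested. Depth limits S100a9 in all libraries, S100a8 in NFs alone and S100a4 in co-cultured NFs.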
